A study of Mus musculus with 6 samples.

Results

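Gene expression in the rostral forebrain of mouse embryos lacking both Fezf1 and Fezf2 was compared with wild type at embryonic day 12.5 (E12.5). The comparison rests on 2 of the series' 6 arrays, picked by labelled genotype and age: 1 wild-type array and 1 array of Fezf1-/- Fezf2-/- embryos, called the knockout here. The remaining 4 arrays hold the same genotypes at E9.5 and E10.5. At all ages the tissue was forebrain lying rostral to where the lateral ventricles end, dissected by hand, and its total RNA was hybridised to an Affymetrix mouse array. Both alleles of both genes are given as mutant in the knockout and no further allele, treatment or strain is named. The labels do not say how many embryos were pooled for an array, nor which part of either gene was deleted. With 1 array a side no difference at E12.5 has a replicate error, and every value below describes these 2 arrays.

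Fezf1 and Fezf2 encode related zinc-finger proteins that act as transcriptional repressors in the early forebrain. Embryos without them are known for defects in the diencephalon, the part of the brain that forms thalamus, prethalamus and pretectum, and Fezf2 is also known as a determinant of deep-layer cortical projection neurons. By E12.5 the wild-type telencephalon contains a dorsal part, the future cortex, a ventral part, the ganglionic eminences, and a dorsal midline that forms the cortical hem and choroid plexus. Markers of these regions and of their neighbours were used to order the results.

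Across 11097 measured genes, those whose mean level over the 6 arrays lay above that of the median probe set, the wild-type and knockout arrays of E12.5 correlated at 0.988, a value across genes and not across replicates. The median deposited signal was 33.7 in wild type and 37.1 in the knockout, and values were quantile-normalized over the 6 arrays before use. Differences are knockout minus wild type on the log2(signal + 6.5) scale, on which 1 is 2-fold and the change of a dim gene is understated. The labelled tissue carried its markers: Dlx1 (signal 1005 and 1035 in wild type and knockout) of the ventral telencephalon and Lhx2 (1217 and 1074) and Emx2 (556 and 451) of the dorsal telencephalon were bright on both arrays. Of 17 Hox and hindbrain genes on the array, which mark tissue behind the midbrain, 16 were at or under a signal of 23.0 on both, the level of the median probe set. Signals of different genes are not comparable with each other, since probes differ.

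At the 2-fold level few genes differed between the arrays. A gene was counted when its brightest probe set differed at least 2-fold, the higher signal was over 100 and no further probe set over 100 went the other way. By this rule 17 genes were higher in the knockout (0.153% of measured genes) and 14 were lower (0.126%). At 1.5-fold, 75 genes were higher (0.676%) and 80 were lower (0.721%). Without scaling between the arrays the median gene was 0.215 higher in the knockout and 90.8% of the genes counted at 1.5-fold were higher, against 48.4% after scaling. Just inside the 2-fold limit stood Fzd10 (1.03) and Nfix (-1.02), and just outside it Fgfbp3 (0.98) and Arf5 (-0.97). The 2-fold filter needs a gene to be bright on at least 1 of the 2 arrays and over the 6 arrays on average. Neurod6 and Olig3, dim on the earlier arrays, did not reach this average and are described below without being counted. Olig3 was also under a signal of 100 on both arrays of E12.5.

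**Figure D1:**
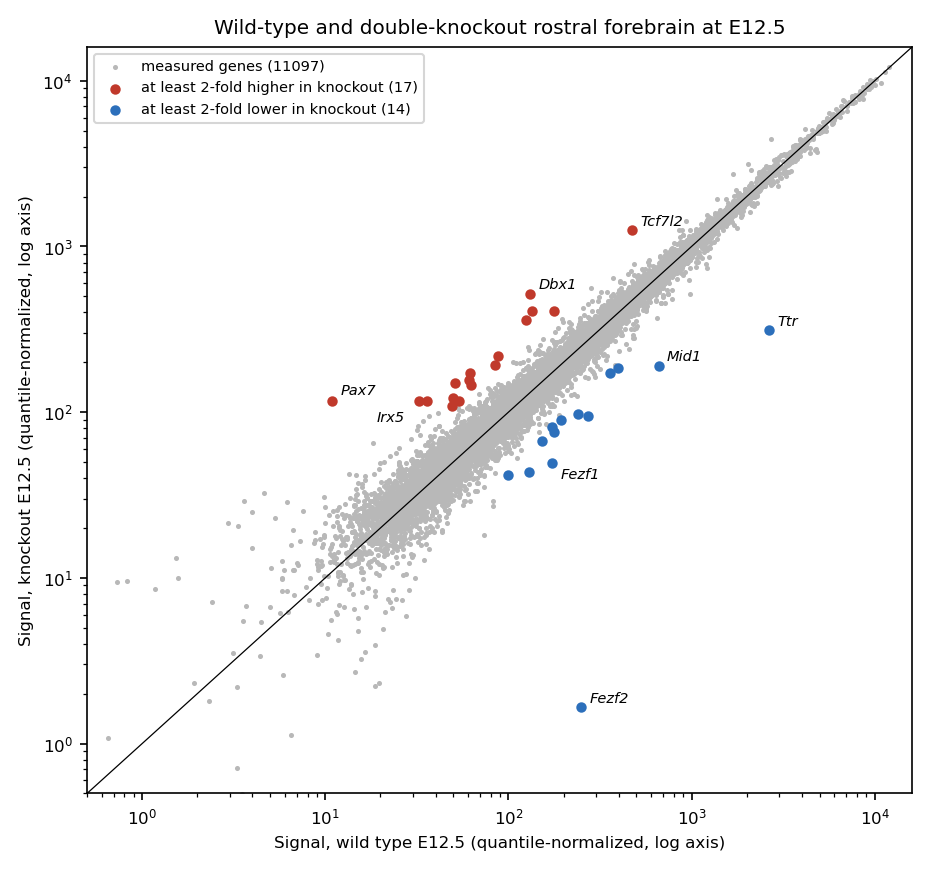
Signal of 11097 measured genes in the wild-type array (x axis) and the knockout array (y axis) of E12.5, both quantile-normalized and on log axes, with the line of equality. Red points are the 17 genes at least 2-fold higher and blue points the 14 genes at least 2-fold lower with a signal over 100 on the brighter array. Pax7 and Dbx1 stand above the line, and Ttr, Mid1, Fezf1 and Fezf2 below it.

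The targeted genes were the first check of the labels. Fezf2 had a signal of 249 in wild type against 1.66 in the knockout, a difference of -4.97 that ran from -6.55 with a pseudocount of 1 to -3.06 with one of 32. Fezf1 had 174 in wild type and 49.5 in the knockout, a difference of -1.69. Each is read by 1 probe set, and the sources used here do not place either probe set inside or outside the deleted part, so the Fezf1 signal that was left checks nothing.

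Transcription factor genes of the caudal forebrain and midbrain led the higher side. Of the 6 largest differences all belonged to genes of this kind: Pax7, of the paired-box family and known from dorsal midbrain and pretectum, Dbx1 and Shox2, homeobox genes expressed in the diencephalon among other places, and Irx5, Irx2 and Irx3, Iroquois homeobox genes of the brain behind the telencephalon. The wild-type signal of Pax7 (10.9) lay below the median probe set, so that its difference of 2.81 gives no exact fold: it ran from 1.79 with a pseudocount of 32 to 3.29 with a pseudocount of 1. The others were 3.82-fold (Dbx1), 3.19-fold (Irx5), 2.94-fold (Shox2), 2.89-fold (Irx2) and 2.81-fold (Irx3) higher. With 1 hand-dissected array a side, genotype and the level at which the tissue was cut cannot be told apart. The same holds for the other region markers below.

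For 4 of these 6 genes the 300 bases from 250 before to 50 after the start are shown, since these genes head the comparison. Sequences are from RefSeq on GRCm38.p6, written 5′ to 3′ on the strand of the gene: Pax7 at chr4:139832919-139833218, minus strand, Dbx1 at chr7:49636786-49637085, minus strand, Irx3 at chr8:91801605-91801904, minus strand and Shox2 at chr3:66981722-66982021, minus strand. Capitals mark TATAAA, the TATA box of core promoters, and CCAAT, the CCAAT box, searched on both strands.
Pax7: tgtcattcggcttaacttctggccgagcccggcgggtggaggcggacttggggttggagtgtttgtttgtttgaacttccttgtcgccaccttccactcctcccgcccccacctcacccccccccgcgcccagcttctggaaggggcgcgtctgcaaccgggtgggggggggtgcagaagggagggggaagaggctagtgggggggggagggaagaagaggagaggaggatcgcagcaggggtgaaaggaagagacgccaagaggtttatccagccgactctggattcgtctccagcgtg
Dbx1: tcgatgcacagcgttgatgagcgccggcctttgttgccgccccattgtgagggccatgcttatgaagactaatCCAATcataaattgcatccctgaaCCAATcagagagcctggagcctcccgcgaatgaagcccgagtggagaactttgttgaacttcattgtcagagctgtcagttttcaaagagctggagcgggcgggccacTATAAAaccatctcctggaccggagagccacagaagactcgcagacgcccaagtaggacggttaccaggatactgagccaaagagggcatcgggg
Irx3: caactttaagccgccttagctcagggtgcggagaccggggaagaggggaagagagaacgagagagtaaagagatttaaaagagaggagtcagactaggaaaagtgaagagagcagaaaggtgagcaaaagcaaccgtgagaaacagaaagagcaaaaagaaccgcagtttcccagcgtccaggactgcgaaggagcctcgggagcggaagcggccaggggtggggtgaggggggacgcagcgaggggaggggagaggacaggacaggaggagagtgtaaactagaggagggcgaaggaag
Shox2: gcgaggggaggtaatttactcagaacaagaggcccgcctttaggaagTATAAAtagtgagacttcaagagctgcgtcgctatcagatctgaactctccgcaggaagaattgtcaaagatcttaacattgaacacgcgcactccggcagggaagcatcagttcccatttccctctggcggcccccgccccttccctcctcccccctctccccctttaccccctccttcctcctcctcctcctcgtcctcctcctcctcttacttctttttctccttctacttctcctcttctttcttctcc
Dbx1 holds 1 TATAAA and 2 CCAAT, Shox2 holds 1 TATAAA far from the start, and neither motif is in the windows of Pax7 and Irx3. TATAAA was present in 3 of 18 promoters among the 20 leading higher genes (Dbx1, Fgfbp3 and Shox2), in 0 of 15 among the 20 leading lower genes and in 6.56% of 9010 promoters of measured genes. For CCAAT these were 5 of 18, 4 of 15 and 39.1%. These are counts of letters in a window and say nothing of which factor binds there.

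The 6 arrays together show how the leading higher genes stood over time. In order of age, the wild-type signal of Pax7 was 133, 132 and 10.9, and the knockout signal was 165, 180 and 116. The E12.5 wild-type array was thus the one low value, and the knockout array of E12.5 lay near the level of the earlier arrays. Irx3 had 619, 619 and 124 in wild type against 741, 773 and 360.5 in the knockout. Irx5 had 75.2, 96.5 and 32.3 in wild type against 110, 111 and 117 in the knockout, where it kept to one level. Mecom, a zinc-finger gene, followed the same order, with 415, 257 and 50.8 in wild type against 474, 386 and 150.5 in the knockout, and its difference of 1.45 was 0.66 when probe sets were averaged. In these 4 genes the wild-type array of E12.5 was the lowest of the 6.

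Dbx1, Shox2 and Tcf7l2 differed in another way, because the knockout array of E12.5 was the highest of the 6. Dbx1 had 165, 95.4 and 131 in wild type against 157, 170 and 519 in the knockout. Shox2 had 88.1, 174 and 135 in wild type against 122, 162 and 409 in the knockout. Tcf7l2, a transcription factor of Wnt signalling that is strongly expressed in the thalamus, had 248, 297 and 474 in wild type against 277, 341 and 1262 in the knockout. All 3 further Tcf7l2 probe sets were higher too, by 1.96, 1.61 and 0.88. Irx2 stood between 36.1 and 49.7 on the other 5 arrays and at 117 in the knockout at E12.5. The comparison of ages within a genotype uses the same E12.5 arrays as the genotype comparison, so these values stand side by side and are no separate support.

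**Figure D2:**
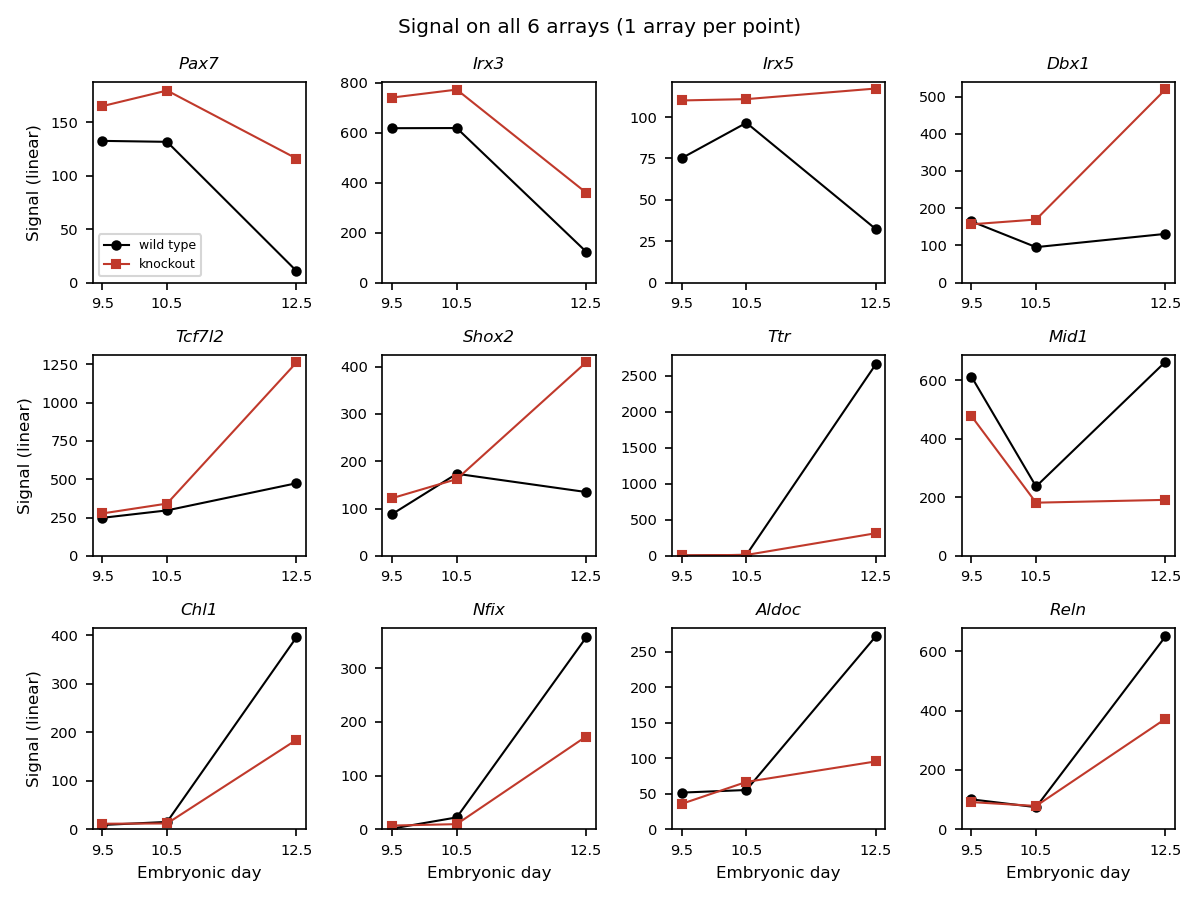
Signal (linear scale, from 0) of 12 genes on all 6 arrays against embryonic day, black for wild type and red for knockout, 1 array per point and no error. In Pax7, Irx3 and Irx5 the wild-type value of E12.5 is the lowest. In Dbx1, Tcf7l2 and Shox2 the knockout value of E12.5 is the highest, and in Ttr, Mid1, Chl1, Nfix, Aldoc and Reln the wild-type value of E12.5 exceeds that of the knockout.

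Lists of region markers, chosen with earlier results of these data known, describe the same regions. Pax7, Dbx1, Tcf7l2 and the Irx genes above are among their members, so the lists are no separate support. Thalamus genes had a median difference of 0.40, with 12 of 16 measured members higher, against a median of 0.02 and 53.5% higher over all measured genes. By the 1.5-fold rule 6 of the 16 were counted as higher and 0 as lower (0.676% and 0.721% of all measured genes): Dbx1, Irx5, Irx2, Irx3, Tcf7l2 and Lhx9, a LIM-homeobox gene of thalamic and other neurons. All of these but Lhx9 were described above. Lhx9 had a signal of 322 in wild type against 534 in the knockout (0.72), and its 3 further probe sets differed by 0.94, 0.57 and 0.57. Irx1 went from 41.5 to 98.5 (1.13), just under the signal minimum. Other thalamic genes did not follow: Gbx2, a homeobox gene of thalamic neurons, stood at 48.7 and 45.6, and Rora, a nuclear receptor, differed by -0.46. Olig3, a factor of caudal thalamic progenitors that the filter leaves out, stood at 80.2 in wild type and 14.5 in the knockout (-2.05). With such dim genes included, the median of the thalamus list relative to all genes was 0.17 instead of 0.38.

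Pretectum and midbrain genes had a median of 0.53, with 14 of 20 measured members higher. By the 1.5-fold rule, which needs a signal over 100, 2 of them were counted as higher and 1 as lower (0.676% and 0.721% of all measured genes). At least 1.5-fold at any brightness, 8 of them were higher and 1 was lower, where 1.97% and 1.95% of all measured genes were. Most of this list was dim, and 13 of its 37 genes on the array were at or under 23.0 on both arrays. Pax3, the close relative of Pax7, had 6.18 in wild type and 28.7 in the knockout (1.47). At E9.5 and E10.5 Pax3 had stood at 212 and 105 in wild type and at 253 and 161 in the knockout. Tal1 and Tal2, basic helix-loop-helix genes of GABAergic neurons of the midbrain and pretectum, were 2.33-fold (36.9 and 94.4) and 2.01-fold higher (32.9 and 72.5), and Pou4f1, a POU factor of tectal and habenular neurons, 2.21-fold (31.9 and 78.5). En1 and En2, which mark the region of the midbrain-hindbrain boundary, were at or under 7.81 on both arrays. Dmbx1, a midbrain gene, was at 19.6 in wild type and 4.11 in the knockout. The higher signal was therefore not shared by the whole list, and with the dim genes included its median relative to all genes was 0.33 instead of 0.51.

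Ventral and basal forebrain genes had list medians near that of all genes, with single members higher or lower. The ganglionic eminence list had a median of 0.04 (15 of 25 higher) and the list for prethalamus and zona limitans, the boundary between prethalamus and thalamus, one of -0.01 (8 of 17 higher). The lowest members were Ikzf1 (27.7 and 5.90, -1.47) and Zfp503 (262 and 163, -0.66) of the first list, both transcription factors of striatal neurons, and Foxd1 and Lhx1 of the second, whose values follow. The Dlx homeobox genes of GABAergic neurons hardly differed: Dlx1 by 0.04, Dlx5 by 0.06 and Dlx2 by 0.17. Fgf15, a growth factor gene of diencephalic and ventral progenitors, had 177 in wild type and 410 in the knockout (1.18). Shh, the hedgehog ligand of the ventral midline and the zona limitans, had 273 and 453 (0.72), and its target Gli1 25.6 and 47.1 (0.74), while the receptor and target Ptch1 differed by 0.12 (884 and 960). Lhx8 and Tac1, genes of ventral telencephalic neurons, had 346 and 535 (0.62) and 199.6 and 349 (0.79). Ebf1, a helix-loop-helix factor of striatal and other early neurons, had 87.6 and 219 (1.26), and all 4 further probe sets were higher, by 0.79, 0.63, 0.97 and 0.16. Its relatives Ebf3 (155 and 276) and Ebf2 (94.8 and 142) were higher by 0.80 and 0.55.

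The hypothalamus list had a median of 0.23, with 11 of 16 members higher, but Dbx1, Shh, Lhx8, Lhx9 and Lhx6 stand on it and on the lists above. Genes with a narrower hypothalamic expression were dim or level: Otp had 178 and 169, Sim1 16.7 and 20.4 and Vax1 77.8 and 93.6. Foxd1, a forkhead gene of basal diencephalon and of head mesenchyme, was lower (82.3 and 29.0, -1.32).

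**Figure D3:**
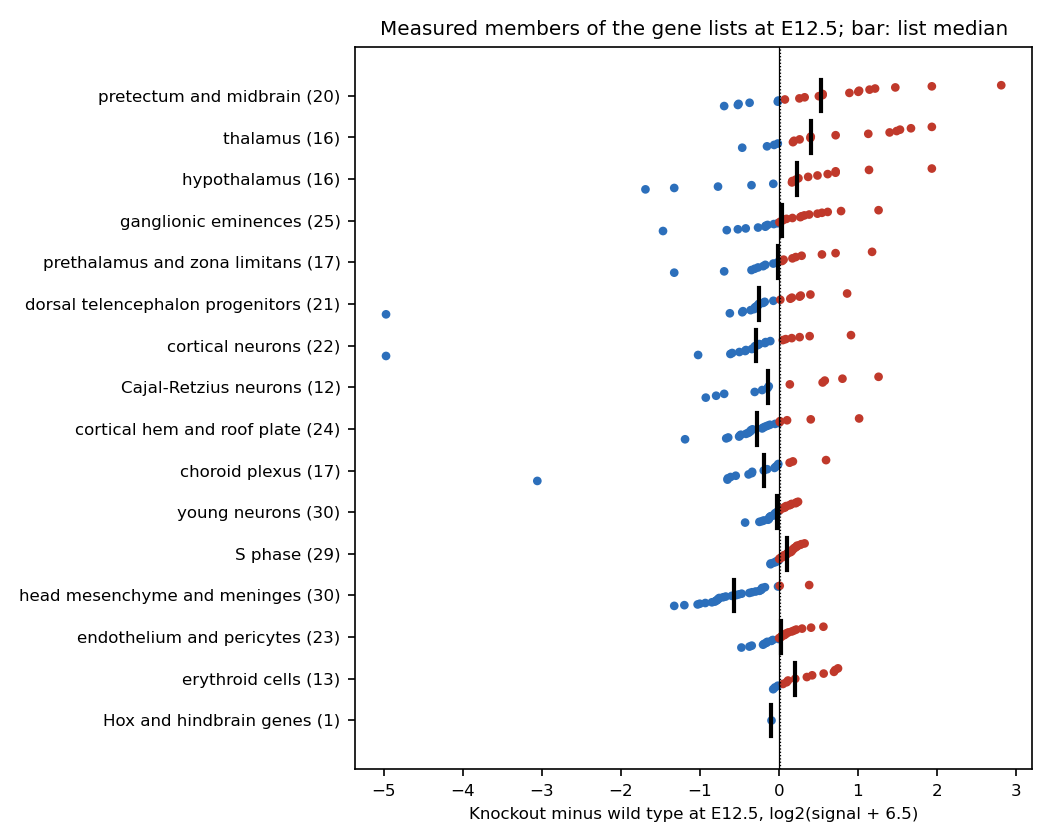
Knockout minus wild-type difference at E12.5 on the log2(signal + 6.5) scale for every measured member of 16 gene lists (1 point per gene, red above 0 and blue below it), with the number measured in brackets. The thick bar is the list median and the dotted line the median of all measured genes. The medians of the pretectum and midbrain list (0.53) and of the thalamus list (0.40) lie highest and that of head mesenchyme and meninges (-0.57) lowest among these lists. The point at -4.97 in the dorsal telencephalon and the cortical neuron lists is Fezf2.

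On the lower side, the choroid plexus gene Ttr came first after Fezf2. Ttr, which encodes the thyroid hormone carrier transthyretin, had 2.63, 13.96 and 2661 in wild type at the 3 ages and 8.03, 12.7 and 314 in the knockout. It was 8.32-fold lower, and the differences of its 4 probe sets lay between -3.33 and -2.83. The list of choroid plexus genes had a median of -0.19, with 3 of 17 measured members higher. Clic6, a chloride channel protein of this epithelium, had 126 and 77.9 (-0.65), although its dimmer probe set was 0.20 higher. Igf2, a growth factor made by choroid plexus and by mesenchyme, had 967 and 631 (-0.61). Kcne2, a potassium channel subunit, was at 28.4 and 3.19 and is under the filter. Otx2, which choroid plexus, diencephalon and midbrain all express, was higher (307 and 468, 0.60). Other genes of mature choroid plexus, among them Aqp1 and Folr1, were dim and level on both arrays (17.5 and 18.8, and 35.5 and 35.1). Fewer cells of a type and less RNA per cell cannot be told apart in such bulk tissue, here and in what follows.

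Cortical hem and roof plate genes, which encode dorsal midline signals, were lower as a list, with a median of -0.27 and 19 of 24 members lower against 46.4% of all measured genes. Rspo3, which amplifies Wnt signals, had 346 and 219 (-0.64) and was the only member counted at 1.5-fold. Rspo2 had 269 and 206.5 (-0.37), Wnt8b 103 and 79.5 (-0.35), and Axin2, a general Wnt target, 155 and 108 (-0.49). Id3 and Id1, targets of Bmp signalling, differed by -0.48 and -0.36. The Bmp ligands were dim, with Bmp2 at 23.2 and 6.57, Bmp7 differing by -0.67 and Bmp4 at 28.4 and 23.9. Lmx1b went the other way (9.91 and 26.7), as did Zic4 (148 and 198).

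Genes of the dorsal telencephalon were lower by small amounts. Their list had a median of -0.25 with 14 of 21 members lower, Fezf2 included, against 46.4% of all measured genes. At E9.5 and E10.5 the list median had been -0.14 and -0.52. Dmrt3, a doublesex-related factor of medial cortical progenitors, had 137 and 86.6 (-0.62), Emx1 131 and 93.5 (-0.46) and Emx2 556 and 451 (-0.30). Nr2f1 and Nr2f2, nuclear receptors of cortical area patterning, differed by -0.36 and -0.45. Lhx2 differed by -0.18 and Pax6, a factor of cortical radial glia, by 0.02 (second probe set over 100, -0.16). Hopx, an atypical homeobox gene, was higher (197 and 363, 0.86; second probe set 0.83), which reversed its order at the earlier ages (-0.67 at E9.5 and -0.52 at E10.5).

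Cortical neuron genes were lower as a list, with a median of -0.28 and 16 of 22 members lower, against 46.4% of all measured genes. By the 1.5-fold rule Nfix, Nfib and Tbr1 were counted as lower, besides the targeted Fezf2, and Cntn2 (0.91) as higher. The rule took 0.721% and 0.676% of all measured genes. Fezf2 is lower through the genotype itself and is also among the 16 of 22. Nfix, Nfib and Nfia are nuclear factor I genes, transcription factors of the maturing cortex. Nfix had 358 in wild type and 173 in the knockout (-1.02), and its further probe sets over 100 differed by -0.76 and -1.13. All 7 Nfib probe sets were lower, with differences from -0.91 to -0.36 and signals of 497.5 and 323 on the brightest (-0.61). Nfia had 732.5 and 544 (-0.43). In the sequence of cortical neuron production, Neurog2 differed by -0.25, Eomes by -0.50 (417.5 and 293; second probe set -0.48), Neurod1 by -0.42 and Tbr1, a gene of the first cortical neurons, by -0.59 (278 and 182). Neurod6, a factor of young cortical neurons that was all but absent at the earlier ages and so is under the filter, had 351 and 141 (-1.28). Bcl11b, of subcortical projection neurons, had 666 and 534 (-0.32). At E10.5 the differences of Tbr1 and Eomes had been -2.74 and -2.12. For Tbr1 the signals were then 63.7 in wild type and 3.99 in the knockout. The knockout signal lay below the median probe set, so that -2.74 gives no exact fold.

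Among genes of Cajal-Retzius cells, the first neurons at the cortical surface, Reln and Calb2 were lower. Reln, which encodes the secreted guidance protein reelin, had 100, 74.0 and 650 in wild type against 91.1, 78.1 and 372 in the knockout, so that the arrays differed at E12.5 (-0.79) and were level before. Calb2 had 118 and 59.0 (-0.92), Lhx1 101 and 60.2 (-0.69) and Trp73, a p53 relative that marks hem-derived cells, 52.2 and 29.4 (-0.71, under the filter). Unlike Reln, Calb2 and Lhx1 were lower at E9.5 and E10.5 too, at dimmer signals. Their differences there were -2.10 and -2.30 for Calb2 and -1.06 and -0.67 for Lhx1. The Ebf genes and Nhlh2 of the same list were higher. The list median was -0.14, and relative to all genes it was 0.13 with probe sets averaged per gene in place of the brightest.

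General neuronal genes did not differ in this way. Of 30 measured genes of young neurons 13 were higher and 0 reached 1.5-fold. Their signals added up to 39300.0 on the wild-type array against 39110.0 in the knockout, and Tubb3, Stmn2 and Dcx, cytoskeletal proteins of young neurons, differed by 0.01, -0.03 and -0.11. At E10.5 this list had stood at a median of -0.61. Genes of radial glia had a median of 0.06, with Sox9, a progenitor factor, at 255 and 426 (0.73; second probe set 0.53) and Fabp7 and Vim at 0.08 and 0.11. Notch signalling genes had a median of 0.06. Hes5, the Notch target, differed by -0.20 at this age after 1.69 and 1.18 at E9.5 and E10.5, but its second probe set over 100 went the other way at E12.5 (270.5 and 371, 0.45). S-phase genes had a median of 0.10, with 22 of 29 members higher and none beyond 0.33 in size, and G2 and M phase genes one of 0.05.

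The remaining leading lower genes included several whose wild-type signal at E12.5 was the highest of the 6 arrays. Chl1, a cell adhesion protein of the L1 family, had 8.46, 14.8 and 396 in wild type against 11.1, 11.6 and 184 in the knockout (-1.08). Aldoc, a glycolytic enzyme of glial cells, had 51.4, 55.1 and 271.5 in wild type against 35.5, 66.4 and 95.3 in the knockout (-1.45). Pcp4, a calmodulin-binding peptide of neurons, had 34.7, 46.9 and 129 in wild type against 45.7, 43.4 and 43.8 in the knockout (-1.43). In Pcp4 the knockout kept to one level over the 3 ages, whereas in Chl1 and Aldoc it was also highest at E12.5. Dlg4, a scaffold protein of excitatory synapses, had 193 and 89.2 (-1.06), and Ppp2r2b, a neuronal phosphatase subunit, 239 and 97.7 (-1.24; second probe set -1.66). Mmd2 had 177 and 76.3 (-1.15; second probe set -0.68), after differences of -1.19 and -1.25 at the earlier ages.

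Mid1, a microtubule-associated ubiquitin ligase, had 612, 237 and 662 in wild type against 477, 182 and 191 in the knockout (-1.76). Its other probe sets were at or under 15.3 on both arrays and differed by 0.54 and -0.55, and averaged with them the difference was -0.59. Lmnb1, which encodes the nuclear envelope protein lamin B1, had 590, 1265 and 976 in wild type against 594, 1330 and 514 in the knockout, with a second probe set at -0.70 at E12.5. The knockout array of E12.5 was the lowest of the 6 for Lmnb1, and the genotypes were level before. Eif2s3y, a Y-linked gene, differed by -0.83 (296 and 164), while Kdm5d and Uty, Y-linked as well, differed by 0.13 and -0.11 and Xist, which coats the silenced X chromosome, was at 9.87 and 17.6.

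On the higher side, other leading genes included Vav3, a guanine nucleotide exchange factor (62.3 and 147, 1.16; second probe set 0.99), Ano1, a calcium-activated chloride channel (84.4 and 192, 1.13), and Fzd10, a Wnt receptor (53.8 and 117, 1.03). Cntn2, an axonal adhesion protein that is on the cortical neuron list, had 128 and 246.5 (0.91; further probe sets 0.73, 0.69 and 0.03). Fgfbp3, a secreted Fgf-binding protein, had 283 and 564 (0.98). Guidance genes as a list had a median of -0.06, with Ntn1, the floor plate attractant netrin-1, at 311 and 495 (0.66) and Robo1, a Slit receptor, at 448 and 678 (0.59; dimmer probe sets -0.10 and 0.18). For some counted genes the brightest probe set stood alone: the other probe sets of Wwc2 differed by 0.01, -0.23, -0.36 and -0.26, those of Top3b by 0.14 and -0.34 and that of Cpt2 by 0.09, all under a signal of 100. Zfp777 (61.3 and 156, 1.26) has 1 probe set.

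**Figure D4:**
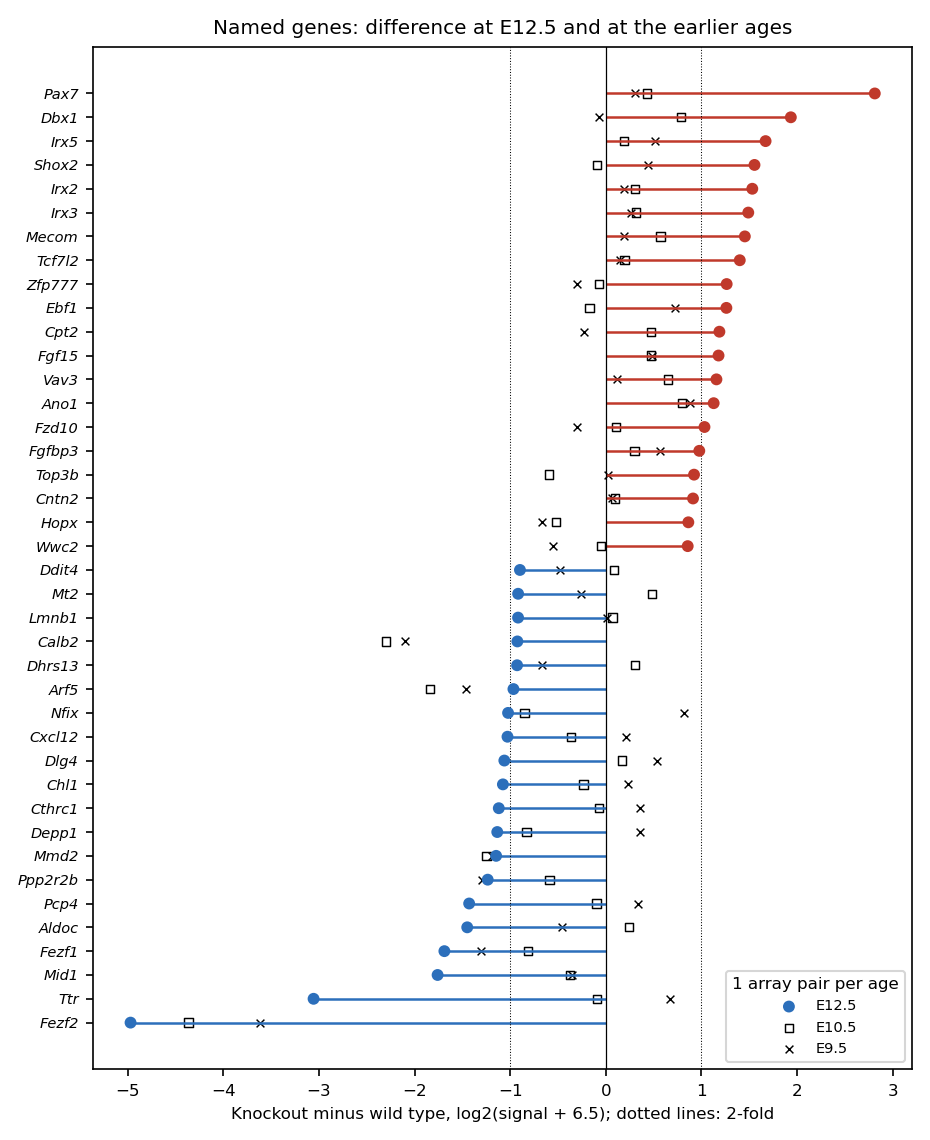
Knockout minus wild-type difference on the log2(signal + 6.5) scale for the 20 leading genes in each direction at E12.5 (filled points with a line to 0), with the same genes at E10.5 (open squares) and E9.5 (crosses). Dotted lines mark 2-fold, and each point is 1 pair of arrays. At both earlier ages Calb2, Arf5 and Mmd2 lie farther from 0 than at E12.5.

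Markers of head mesenchyme and meninges, tissue around the brain, differed between the 2 arrays at this age. With 1 hand-dissected array a side, genotype and the amount of such tissue left on cannot be told apart. Of 30 measured genes of head mesenchyme and meninges, 28 were lower in the knockout, and the median was -0.57. At least 1.5-fold at any brightness, 15 were lower (1.95% of all measured genes). By the 1.5-fold rule, which needs a signal over 100, 3 were counted as lower and 0 as higher (0.721% and 0.676%). Over the 33 genes on the array, 5 of them at or under 23.0 on both, the signals added up to 5383 in wild type against 4009 in the knockout, after 8010.0 and 9969 at E9.5 and 10910.0 and 10860.0 at E10.5. Among defining members, Col1a2, a fibrillar collagen, had 401 and 235 (-0.75; second probe set -0.67), Lum, a matrix proteoglycan, 478 and 290.5 (-0.71) and Col3a1 1239 and 870 (-0.51). Twist1, Alx1 and Snai2, transcription factors of cranial mesenchyme, were dimmer on both arrays of E12.5 than on any earlier array, with 18.6 and 8.29, 16.5 and 3.55, and 61.4 and 29.1. Cxcl12, a chemokine of the meninges that guides Cajal-Retzius cells, had 172 and 81.2 (-1.03; second probe set -0.76) and stands on this list. Cthrc1, a collagen-associated secreted protein, had 152.5 and 66.7 (-1.12). The part of the mesenchyme difference in the lower values of Reln, Calb2, Igf2, Foxd1, Id1 and Id3 and of the hem and roof plate list was not tested.

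Other surrounding cell types differed less. Endothelial and pericyte genes had a median of 0.03 with 13 of 23 higher, and signals adding up to 2137 in wild type against 2194 in the knockout. Macrophage and myeloid genes had a median of -0.05. Surface ectoderm genes were dim, with a summed signal of 297 and 287 over 22 genes. Erythroid genes had a median of 0.21 with 10 of 13 higher: the embryonic globins Hba-x and Hbb-bh1 had 2715 and 4448 (0.71) and 1692 and 2747 (0.70; further probe sets 0.68 and 0.58), while Hbb-y differed by 0.10 near the top of the signal range. At the earlier ages neither Hba-x nor Hbb-bh1 differed by more than 0.13. Both were brighter there, at 4551 to 7434 (Hba-x) and 8469 to 9820 (Hbb-bh1), nearer the top of the range.

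Whether the genotype difference at E12.5 departed from that at the earlier ages was tested for all measured genes with limma, as the difference at E12.5 minus the mean of those at E9.5 and E10.5, with the disagreement of the earlier ages as the error. No gene passed at an adjusted p under 0.05 (0 genes), and 402 genes had an unadjusted p under 0.05 (3.62% of 11097). The smallest adjusted p was 0.506, shared by Pax7 (2.45 ± 0.28, moderated SE), Ttr (-3.35 ± 0.44), Mid1 (-1.40 ± 0.18), Irx3 (1.202 ± 0.17), Tcf7l2 (1.23 ± 0.18), Hes5 (-1.64 ± 0.24), Alx1 (-1.89 ± 0.26) and Hbb-bh1 (0.68 ± 0.10), among others. The test has 1 residual degree of freedom before moderation. On the values as deposited 13 genes passed, Xist, Pax7, Dbx1, Ttr, Hopx and Hes5 among them, and with a pseudocount of 32 Ttr passed alone (adjusted p = 0.0219 in limma). Xist follows the sex of the embryos, which is not in the sample labels used here. At the main setting none of the differences described here was shown to be particular to E12.5.

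The counted genes were also followed at the earlier ages, whose arrays are not shared. Of the 75 genes higher at E12.5 by the 1.5-fold rule, 41 were higher at E10.5 (54.7%, against 47.6% of all measured genes) and 45 at E9.5 (60.0%, against 52.8%). Of the 80 lower genes, 57 were lower at E10.5 (71.2%, against 52.2%) and 38 at E9.5 (47.5%, against 47.1%). By size, 18 of the 80 were at least 1.5-fold lower at E10.5 and 12 at E9.5, where 3.98% and 2.32% of all measured genes were, at any brightness. The targeted Fezf1 and Fezf2 are among the 80 and in each of these counts of lower genes. Arf5 (-1.46 at E9.5 and -1.84 at E10.5) and Rbm28 (-0.99 and -0.65) are in each of them as well, among others. Of the 75, 7 were at least 1.5-fold higher at E10.5 and 7 at E9.5, where 2.37% and 3.42% of all measured genes were. Both counts include 3830406C13Rik (1.27 at E10.5, 1.59 at E9.5 and 1.39 at E12.5), which its clone name kept from the leading genes. Where the counted genes lie relative to the targeted genes was not examined.

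**Figure D5:**
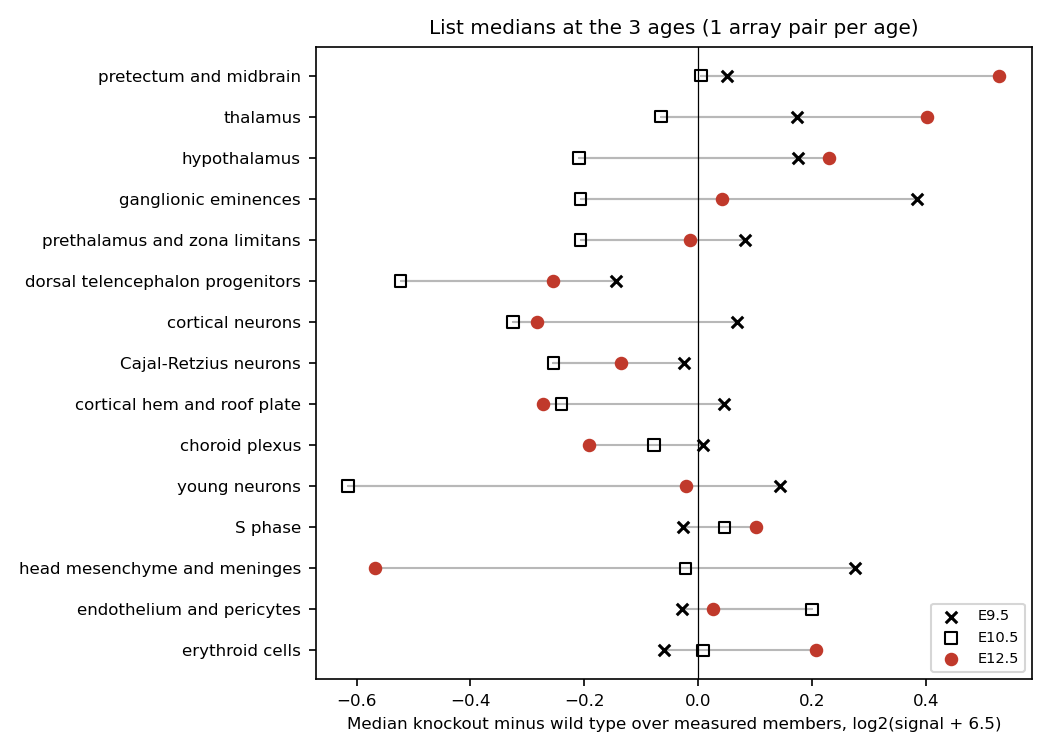
Median knockout minus wild-type difference over the measured members of 15 gene lists on the log2(signal + 6.5) scale, at E9.5 (crosses), E10.5 (open squares) and E12.5 (red points), 1 pair of arrays per age and no error. The pretectum and midbrain, thalamus and head mesenchyme lists lie farthest from 0 at E12.5, whereas young neuron genes lie at -0.61 at E10.5 and -0.02 at E12.5.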

How the data were processed

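Labelled genotype and age gave the groups, with 1 array in each. Each deposited value is the linear intensity of a probe set. The submitters' processing notes name MAS5, and the arrays held RNA labelled in a one-cycle procedure per the labels' protocols. Its version, scaling target and detection calls are unknown (not given in the sources used here), and background correction and probe summary could not be redone. Of 45101 probe sets, 34958 name 1 gene symbol in the platform annotation and were used, 932 name several and 9211 none listed there. Of the 34958, 34754 matched an Entrez identifier of GRCm38.p6, with 0 symbols changed.

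All 6 arrays were quantile-normalized (limma 3.58.1 in R 4.3.3) because the deposited intensity did not appear to be scaled to a common level. This was judged from the 2% trimmed means, which ran from 74.3 to 162. The pseudocount of 6.5 is the lower quartile of all deposited values. A gene was read by the probe set with the highest mean over 6 arrays, and 11097 of 18194 genes passed the filter on dim genes. No test was made within E12.5. The test against earlier ages used lmFit and eBayes with a variance trend (age block, genotype, genotype at E12.5; 6.23 degrees of freedom after moderation), Benjamini-Hochberg adjustment over measured genes, and was tested on simulated data. Such p-values measure only the spread between these arrays.

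Named genes were Fezf1, Fezf2, the 20 leading genes in each direction, without clone names and sex-linked genes, and members of 32 gene lists. Members, lists and the limits were chosen with earlier results of these data known. Lists share genes and are not independent. They cover the regions and cell types named in the report, and Wnt (median -0.05), Bmp (-0.14), hedgehog (0.16), Fgf (-0.04), Notch and retinoic acid (-0.08) signalling, proneural factors (0.12), eye (-0.09), Hox, transmitter (0.11), surface ectoderm (-0.07), olfactory (-0.01) and sex-linked (0.01) genes. The number of arrays limits the precision of every value.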

Additional observations from a re-analysis of the deposited data

Results flagged for a closer look

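In 5 of the 40 leading genes (20 in each direction) the difference at E12.5 was opposite in direction to that at both earlier ages. In the limma test against the earlier ages the adjusted p was 0.774 for Hopx, 0.624 for Lmnb1 and 0.9997 for the other 3. Hopx was 0.86 higher at E12.5 and lower at E9.5 (-0.67) and E10.5 (-0.52). Zfp777 was 1.26 higher at E12.5 and stood at -0.30 and -0.07 before. Wwc2 was 0.86 higher, after -0.56 and -0.05. Dlg4 differed by -1.06, after 0.54 and 0.17, from signals of 8.43 to 29.0 at the earlier ages. Lmnb1 differed by -0.92, after 0.01 and 0.07.

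Among the 10092 probe sets that name no single gene, which no comparison above uses, 1247 had a signal over 100 at E12.5. Of these, 5 were at least 2-fold lower in the knockout and 0 at least 2-fold higher.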

How the results depend on the processing

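All 31 genes counted at 2-fold kept their direction under the 7 alternatives of scaling, pseudocount, dim filter and probe set summary. Of these 31, 23 to 31 stayed at 2-fold under the 3 other scalings and without the dim filter, 29 with a pseudocount of 1, 19 with one of 32, and 13 with probe sets averaged per gene. The counts at 2-fold (17 higher, 14 lower) and 1.5-fold (75, 80) were 33, 8, 297 and 30 on the values as deposited. They were 8, 6, 37 and 45 with probe sets averaged per gene, which brings in dim ones, and 6, 7, 37 and 39 with a signal minimum of 200. With a minimum of 50 there were 28 genes 2-fold higher, and 122 higher and 122 lower at 1.5-fold. With a pseudocount of 32, 8 were 2-fold and 50 were 1.5-fold lower, and with the mean of both E12.5 signals over 100, 11 were 2-fold higher. Of 40 named genes, 36 stayed at 1.5-fold under all 5 alternatives run for them, 0 reversed, and Dlg4, Nfix, Top3b and Wwc2 fell short with probe sets averaged per gene (-0.50, -0.58, 0.24 and 0.01). The limma test against the earlier ages passed 13 genes on the values as deposited (399 at an unadjusted p under 0.05), namely Xist (the smallest adjusted p, 1.48e-17), Pax7, Dbx1, Ttr, Hopx, Hes5, the mesenchyme genes Alx1, Snai2 and Twist2, and Cldn9, Nfkb2, Scube2 and Smtnl2, and 1 gene, Ttr, with a pseudocount of 32 (418); it passed 0 otherwise. The result for Xist cannot be told apart from a difference in embryo sex between the arrays, since sex is not labelled. Relative to all measured genes, 3 list medians were at least 0.2 above and 5 at least 0.2 below. Without the dim filter 1 was above, pretectum and midbrain. Under the alternatives the relative median ran from 0.33 to 0.56 for pretectum and midbrain, 0.17 to 0.84 for thalamus and -0.66 to -0.36 for head mesenchyme. Within E12.5 no paired analysis was possible, because each group has 1 array and hence no replicate numbers to pair. The test against the earlier ages pairs the arrays by age, which it has as a block. Leaving out an earlier pair leaves no residual degree of freedom.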
